A study of Mus musculus with 22 samples.

Results

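Kupffer cells are the resident macrophages of the liver, where they line the sinusoids, clear bacteria, aged blood cells and lipoproteins from the blood, and depend on the growth factor receptor encoded by Csf1r. The 10 genes described here mark these cells or macrophages in general: Mpeg1, Marco, Cd5l, Cd68, Lyz2, Clec4f, Vsig4, Csf1r, Adgre1 and Timd4. They were taken by name, as every probe set annotated to them alone, out of 18194 genes with a probe set of their own. The array carries 13 such probe sets, 3 for Csf1r, 2 for Marco and 1 for each of the other members, and for a gene with several the brightest gives the values below unless stated.

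The arrays measured whole livers of mice lacking Trim24, a nuclear receptor co-regulator that binds retinoic acid receptor alpha, the product of Rara. There were 4 Trim24-/- Rara+/- mice, 4 Trim24-/- mice and 4 wild-type (WT) mice at 5 weeks, and 5 Trim24-/- and 5 WT mice at 14 weeks, each animal on an array of its own. Every group had a mixed C57BL/6 and 129/Sv background and was kept free of specific pathogens. The alleles were inherited, from crosses between Trim24+/- Rara+/- mice per the labels, so they were not limited to macrophages or to any other cell type. Neither Trim24-/- Rara+/- mice at 14 weeks nor Rara+/- mice with intact Trim24 were analysed here. Each replicate is a separate mouse, and animals are named below by the end of their sample titles.

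Signal is the authors' linear intensity, scaled so that the trimmed mean of each array is 100. A log2 change is the difference of group means of log2(signal + 16), which understates the change of dim genes, and a gene was called at an adjusted p under 0.05 (limma, Benjamini-Hochberg over all 18194 genes). The number of arrays limits the precision of every value.

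Several features of the arrays bear on what follows. The labels could not be checked on the targeted genes: Trim24 read 363.4 ± 84.7 in Trim24-/- and 316.9 ± 111 in WT livers at 5 weeks (SD, n = 4 each), Rara was dim in all groups, and the position of their probes relative to the altered parts was not found in the labels. Xist read 947.9 to 2169 on every array at 5 weeks and 13.36 to 44.51 at 14 weeks, while the Y-linked Eif2s3y read up to 6.593 at 5 weeks and at least 245 at 14 weeks, so age and sex-linked signal cannot be told apart. Among genes with a mean log2 level of at least 6, WT animal 90WT had the lowest mean correlation with its group (0.953), and Trim24-/- Rara+/- animals 54R, 66R and 82R correlated with each other at 0.987 to 0.992.

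Markers other than the members were also measured. Of 29 genes in a list of other Kupffer cell and macrophage genes, 21 had a mean signal over 100 on the 22 arrays, and none was below 16 on every array. In whole liver, fewer cells of a type and less RNA per cell cannot be told apart.

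At 5 weeks, 1 of the 10 markers rose in Trim24-/- livers compared with WT. Mpeg1, which encodes the pore-forming protein perforin-2 of phagocytes, was 3.23-fold higher. In this comparison 0.599% of all genes were called, and 0.473% of all genes were called higher. Marco, Cd5l and Cd68 gave estimates between 0.57 and 1.13 on the log2 scale that did not pass the test, while Clec4f, Vsig4, Csf1r, Adgre1 and Lyz2 gave estimates between -0.07 and 0.23. The median log2 change was 0.30 over the 10 markers and -0.01 over all genes. Estimates were positive for 9 of 10 markers and 47.9% of all genes, and 4 markers had an unadjusted p under 0.05 on the higher side, compared with 6.11% of all genes. Single arrays moved this median: it was 0.15 without 45WT or 6KO, 0.16 without 37KO, 0.50 without 1KO and 0.57 without 90WT, and the count of positive estimates was 6 without 37KO. As the markers share the same arrays, their estimates at 5 weeks are not independent of each other.

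The promoter windows of Mpeg1, Marco, Cd5l and Vsig4 are shown. Mpeg1 was called, and Marco and Cd5l had an unadjusted p under 0.05 (limma) against WT in both mutant groups at 5 weeks. Vsig4 had the largest spread of the markers between Trim24-/- animals at that age. Each runs from 250 bases before to 50 after the RefSeq start in GRCm38.p6, 5′ to 3′ on the gene's own strand. Capitals mark GAGGAA or its reverse complement, the core letters bound by PU.1, a transcription factor that macrophages need. Mpeg1 lies at chr19:12460520-12460819 on the plus strand, Marco at chr1:120504975-120505274 on the minus strand, Cd5l at chr3:87357631-87357930 on the plus strand and Vsig4 at chrX:96293389-96293688 on the minus strand.
Mpeg1: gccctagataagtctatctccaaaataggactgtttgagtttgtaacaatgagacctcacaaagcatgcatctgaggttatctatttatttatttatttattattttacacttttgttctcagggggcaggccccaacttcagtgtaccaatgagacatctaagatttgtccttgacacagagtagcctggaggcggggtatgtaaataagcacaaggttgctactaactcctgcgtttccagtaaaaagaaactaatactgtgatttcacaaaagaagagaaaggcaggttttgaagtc
Marco: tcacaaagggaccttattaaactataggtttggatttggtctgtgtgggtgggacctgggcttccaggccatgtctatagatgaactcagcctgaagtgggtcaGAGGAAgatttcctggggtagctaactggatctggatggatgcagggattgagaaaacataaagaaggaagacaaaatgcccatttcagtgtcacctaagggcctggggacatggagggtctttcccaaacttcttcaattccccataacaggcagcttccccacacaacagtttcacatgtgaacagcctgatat
Cd5l: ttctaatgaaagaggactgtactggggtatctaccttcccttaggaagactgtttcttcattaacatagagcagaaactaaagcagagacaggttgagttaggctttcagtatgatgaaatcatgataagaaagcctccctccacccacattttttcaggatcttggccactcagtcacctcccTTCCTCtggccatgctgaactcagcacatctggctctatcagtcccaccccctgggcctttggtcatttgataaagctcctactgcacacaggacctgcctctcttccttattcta
Vsig4: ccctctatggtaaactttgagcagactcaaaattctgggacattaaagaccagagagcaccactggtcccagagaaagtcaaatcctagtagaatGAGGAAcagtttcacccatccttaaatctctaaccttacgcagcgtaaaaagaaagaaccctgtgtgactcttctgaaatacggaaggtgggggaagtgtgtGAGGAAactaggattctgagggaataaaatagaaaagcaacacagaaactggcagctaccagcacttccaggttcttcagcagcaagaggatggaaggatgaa

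Of the 8 markers with a window in the RefSeq table, 4 hold these letters on either strand: Marco and Cd5l once each, Vsig4 and Cd68 at 2 places each. They occur in 28.3% of 32851 windows of the same length. The interferon response element, searched as GAAA followed by any 2 bases and GAAA (3.44% of windows), and TTCNNNGAA, a STAT site (8.3% of windows), were searched on both strands and are in none of the 8 windows. The windows of Mpeg1, Clec4f, Timd4 and Lyz2 hold none of the 3 motifs, which says only that these letters are not in these bases. In the Marco window the letters start 146 bases before the gene's start, and in the Cd5l window 66 bases before it.

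Mpeg1 read 1364, 748.8, 909.6 and 942.8 in the livers of Trim24-/- animals 1KO, 6KO, 8KO and 37KO, and 307.5, 255.6, 233.1 and 376.7 in those of WT animals 2WT, 44WT, 45WT and 90WT. Every Trim24-/- array lay above every WT array. The log2 change was 1.69 ± 0.30 (SE), with an adjusted p of 0.0275 (limma). Leaving out WT animal 2WT, 44WT or 45WT or Trim24-/- animal 1KO or 8KO moved the adjusted p to between 0.0542 and 0.105, with log2 changes of 1.53 to 1.72, so the call rests on these animals while the size does not.

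Mpeg1 was closer to the WT level in 3 of the 4 livers that were also heterozygous for Rara. Mpeg1 read 268.3, 294.5, 748.3 and 257.2 in Trim24-/- Rara+/- animals 54R, 66R, 73R and 82R. Of these, 3 fell within the WT range and animal 73R read 748.3, just under the lowest Trim24-/- array at 748.8. The log2 change of Trim24-/- Rara+/- livers was 0.28 ± 0.30 against WT (adjusted p = 0.897, limma) and -1.42 ± 0.30 against Trim24-/- (adjusted p = 0.0834, limma). Without animal 73R the second value was -1.77 with an adjusted p of 0.00717. With animals 54R, 66R and 82R, whose arrays were alike, averaged to 1 sample it was -1.07 with an adjusted p of 0.736. The 3 comparisons at 5 weeks share arrays, so a high or low group enters 2 of them.

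Marco and Cd5l gave similar estimates in both mutant groups. Marco, a class A scavenger receptor that binds bacteria, read 153.2, 138.5, 195.4 and 123.3 in Trim24-/- Rara+/- livers (animals 54R, 66R, 73R and 82R), 231.8, 100.9, 187.2 and 209.6 in Trim24-/- livers (animals 1KO, 6KO, 8KO and 37KO), and 69.1, 79.88, 116 and 37.83 in WT livers (animals 2WT, 44WT, 45WT and 90WT). All 4 Trim24-/- Rara+/- arrays lay above all 4 WT arrays, whereas Trim24-/- animal 6KO lay below WT animal 45WT. The log2 change against WT was 0.93 ± 0.27 in Trim24-/- Rara+/- livers (adjusted p = 0.377, limma) and 1.13 ± 0.27 in Trim24-/- livers (adjusted p = 0.114, limma). Without Trim24-/- animal 6KO, the change in Trim24-/- livers was 1.37 with an adjusted p of 0.0334. The second Marco probe set gave 0.93 ± 0.22 and 1.09 ± 0.22 in the same comparisons, with adjusted p-values of 0.302 and 0.0736 in a limma fit of every probe set.

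Cd5l encodes a protein that macrophages secrete into the blood and that protects them from apoptosis. Cd5l read 1009, 1345, 2229 and 918.1 in Trim24-/- Rara+/- livers, 1254, 1302, 1325 and 1941 in Trim24-/- livers and 916, 557.7, 503.1 and 922.1 in WT livers, with animals in the same order as for Marco. All Trim24-/- arrays lay above all WT arrays, and 1 Trim24-/- Rara+/- array, animal 82R at 918.1, lay just below the highest WT array at 922.1. The log2 change against WT was 0.87 ± 0.28 in Trim24-/- Rara+/- livers (adjusted p = 0.455, limma) and 1.02 ± 0.28 in Trim24-/- livers (adjusted p = 0.16, limma). Between Trim24-/- Rara+/- and Trim24-/- livers the estimate was -0.15 ± 0.28 for Cd5l and -0.20 ± 0.27 for Marco.

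Cd68, a lysosomal glycoprotein of macrophages, had its highest mean in Trim24-/- and its lowest in WT livers at 5 weeks. Mpeg1, Marco, Cd5l, Clec4f, Adgre1 and Timd4 had the same order of group means. Cd68 read 100.3, 107.2, 158.4 and 91.44 in Trim24-/- Rara+/- livers, 129.4, 156.5, 127.7 and 204.1 in Trim24-/- livers and 102.8, 85.41, 79.52 and 126.6 in WT livers, in the same order of animals. The Trim24-/- arrays did not overlap with WT, although the lowest, 127.7, was close to the highest WT array, 126.6. The log2 change was 0.57 ± 0.19 in Trim24-/- livers (adjusted p = 0.259, limma), 0.18 ± 0.19 in Trim24-/- Rara+/- livers (adjusted p = 0.895, limma), and -0.39 ± 0.19 between the mutant groups (adjusted p = 0.455, limma).

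Groups that did not overlap between Trim24-/- and WT livers at 5 weeks were found for 3 markers, Mpeg1, Cd5l and Cd68, and for 5.52% of all genes in either direction. Between Trim24-/- Rara+/- and WT livers no marker was called, against 0.0550% of all genes. There Marco and Cd5l had an unadjusted p under 0.05 on the higher side (3.11% of all genes), Marco alone did not overlap (4.62% of all genes in either direction), and 9 estimates were positive (44.8% of all genes). Without 73R, 5 of the 10 estimates were positive and their median was -0.02, against 0.23 with it, while without 45WT 6 were positive. Between Trim24-/- Rara+/- and Trim24-/- livers no marker was called, against 0.143% of all genes. There Mpeg1 alone had an unadjusted p under 0.05 (11.5% of all genes) and alone did not overlap (8.46% of all genes), and 3 estimates were positive (47.3% of all genes). Without 1KO the number of positive estimates was 1, and without 37KO it was 5. Array weights, a limit to brighter genes and a fit of all 22 arrays each called Mpeg1 lower in that comparison.

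**Figure D1:**
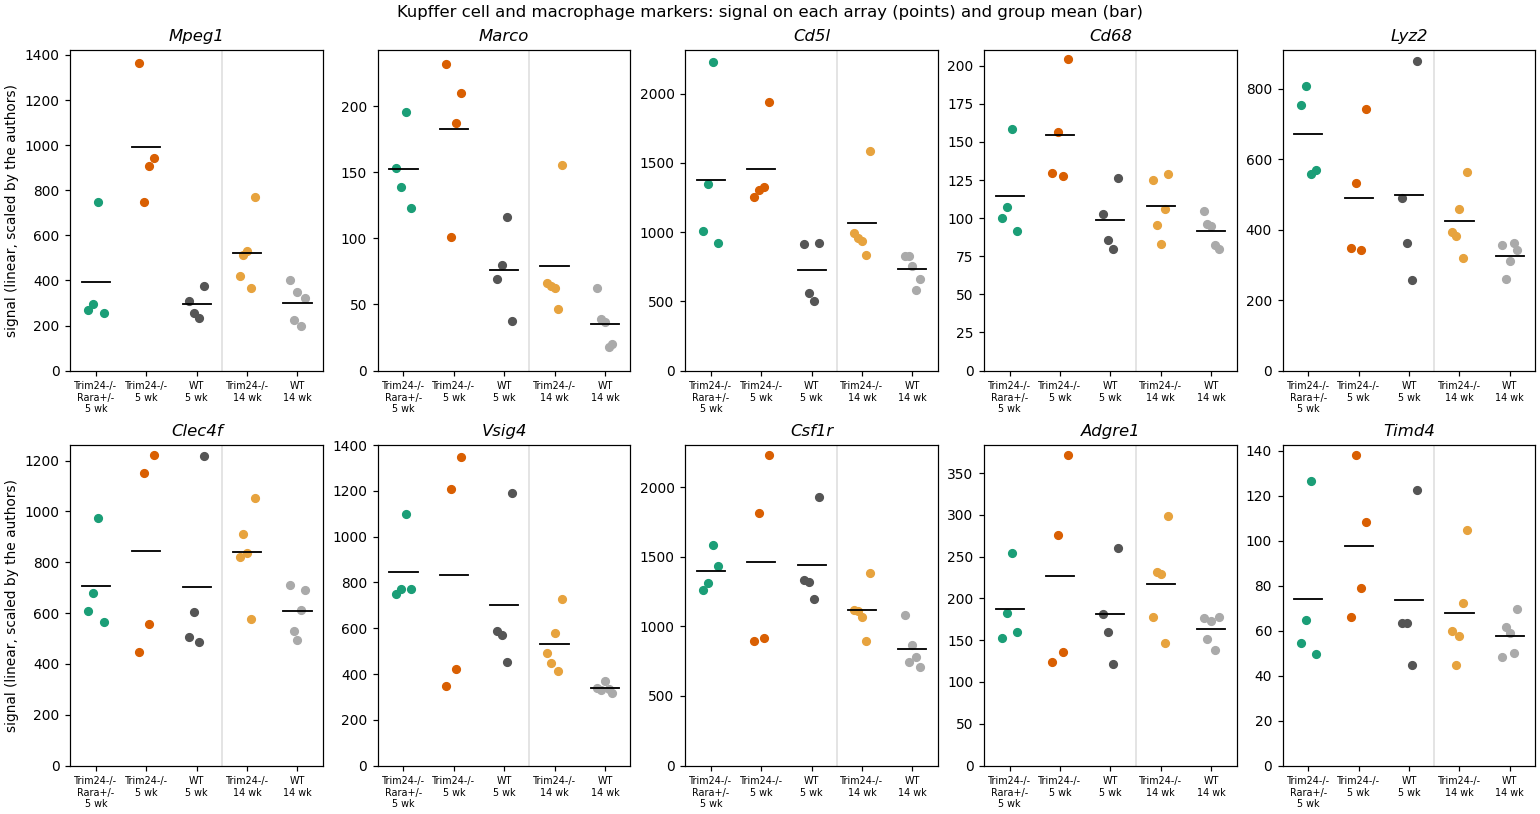
Signal (linear, scaled by the authors) of the 10 markers on each of 22 arrays, with points for animals and a bar for the group mean. Mpeg1 sits between 748.8 and 1364 on the 4 Trim24-/- arrays at 5 weeks, above all 4 WT arrays, while Clec4f, Vsig4, Csf1r and Adgre1 spread most within the Trim24-/- group at that age.

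**Figure D2:**
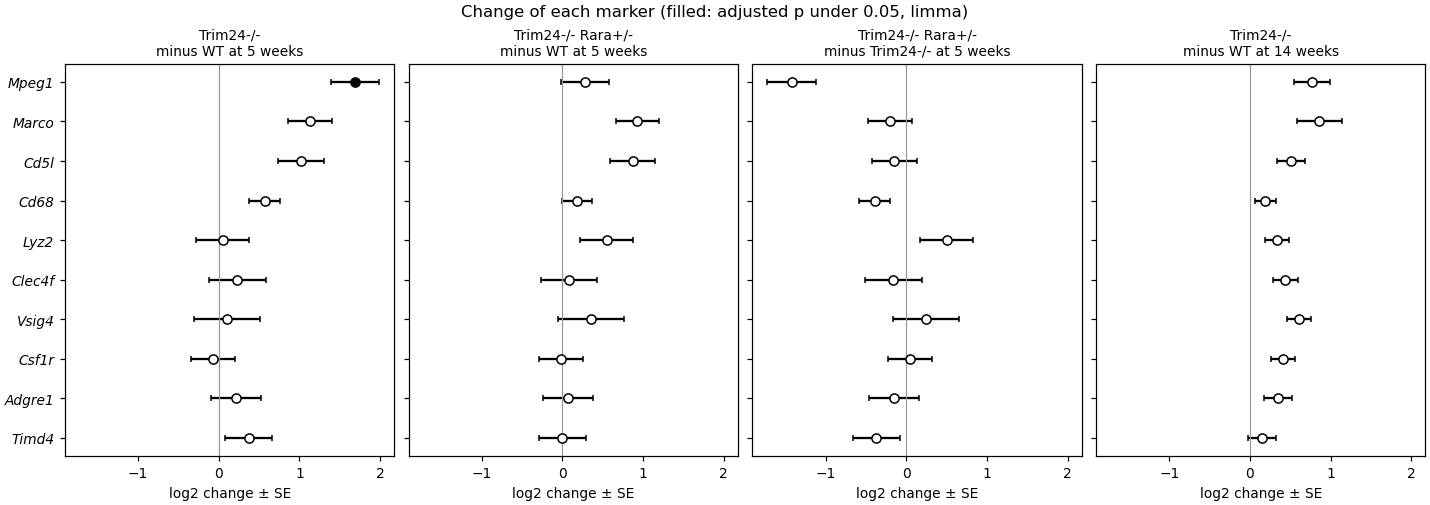
Log2 change of each marker with its standard error in 4 comparisons, from limma on log2(signal + 16). The filled point is Mpeg1 in Trim24-/- against WT livers at 5 weeks, the single marker past an adjusted p of 0.05, and all 10 points lie above 0 at 14 weeks.

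Clec4f, Vsig4, Csf1r and Adgre1 differed between animals at 5 weeks, most within the Trim24-/- group, where the SD of log2(signal + 16) was 0.67 to 0.99, against 0.14 to 0.34 in the Trim24-/- Rara+/- and 0.30 to 0.60 in the WT group. Clec4f, a C-type lectin that in mice is restricted to Kupffer cells, read 608.5, 678.2, 975.6 and 563 in Trim24-/- Rara+/- livers (animals 54R, 66R, 73R and 82R), 448.5, 1150, 555 and 1223 in Trim24-/- livers (animals 1KO, 6KO, 8KO and 37KO) and 506.2, 604.1, 487.7 and 1218 in WT livers (animals 2WT, 44WT, 45WT and 90WT). The Trim24-/- group holds both the highest and the lowest array, and the log2 change against WT was 0.23 ± 0.35 in Trim24-/- and 0.08 ± 0.35 in Trim24-/- Rara+/- livers (adjusted p = 0.87 and 0.982, limma).

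Vsig4, a complement receptor by which Kupffer cells capture blood-borne bacteria, had the largest of these SDs. Vsig4 read 747.7, 773.5, 1098 and 772.6 in Trim24-/- Rara+/- livers, 347.4, 1207, 421.9 and 1350 in Trim24-/- livers and 589.1, 570.7, 452.5 and 1191 in WT livers, in the same order of animals. Trim24-/- animals 1KO and 8KO lay below every other array at this age and animals 6KO and 37KO above every other. The log2 change was 0.10 ± 0.41 in Trim24-/- and 0.35 ± 0.41 in Trim24-/- Rara+/- livers.

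Csf1r, the receptor for the growth factors CSF1 and IL-34, and Adgre1, which encodes the F4/80 antigen, ordered the arrays in a similar way. Csf1r read 1264 to 1588 in Trim24-/- Rara+/- livers, 897.8, 1815, 913.1 and 2228 in Trim24-/- livers and 1193 to 1926 in WT livers. Adgre1 read 152.7 to 254.3, 124.1 to 371.4 and 121.4 to 260.4 in the same 3 groups. The groups overlapped for both genes, and the log2 changes in Trim24-/- livers were -0.07 ± 0.27 for Csf1r and 0.21 ± 0.31 for Adgre1.

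The same 4 arrays read highest for each of Clec4f, Vsig4, Csf1r, Adgre1 and Timd4: Trim24-/- animals 37KO and 6KO, Trim24-/- Rara+/- animal 73R and WT animal 90WT. Timd4, a receptor for phosphatidylserine on dying cells that marks long-lived resident macrophages, read 54.69, 64.79, 126.3 and 49.55 in Trim24-/- Rara+/- livers, 66, 137.9, 78.82 and 108.2 in Trim24-/- livers and 63.25, 63.25, 44.79 and 122.4 in WT livers. Its log2 change was 0.00 ± 0.29 in Trim24-/- Rara+/- and 0.37 ± 0.29 in Trim24-/- livers. Mpeg1 did not share this order, since Trim24-/- animals 1KO and 8KO, the lowest for Vsig4 and Csf1r, ranked 1 and 3 for Mpeg1.

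Mpeg1 was also set against Clec4f, Vsig4, Csf1r and Adgre1 within the same livers. The mean log2(signal + 16) of Clec4f, Vsig4, Csf1r and Adgre1 was 9.33 ± 0.25 in Trim24-/- Rara+/-, 9.33 ± 0.77 in Trim24-/- and 9.21 ± 0.47 in WT livers at 5 weeks (SD, n = 4 each). Relative to this mean on the same array, a description chosen after the values were seen, Mpeg1 was at 0.61 ± 1.04 in Trim24-/- and -0.96 ± 0.23 in WT livers (SD on the log2 scale, n = 4 each). The lowest Trim24-/- array was at -0.29 and the highest WT array at -0.74. Marco, Cd5l, Cd68, Timd4 and Lyz2 on this relative scale overlapped between Trim24-/- and WT livers at 5 weeks, with differences of 1.01, 0.90, 0.45, 0.25 and -0.07.

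**Figure D3:**
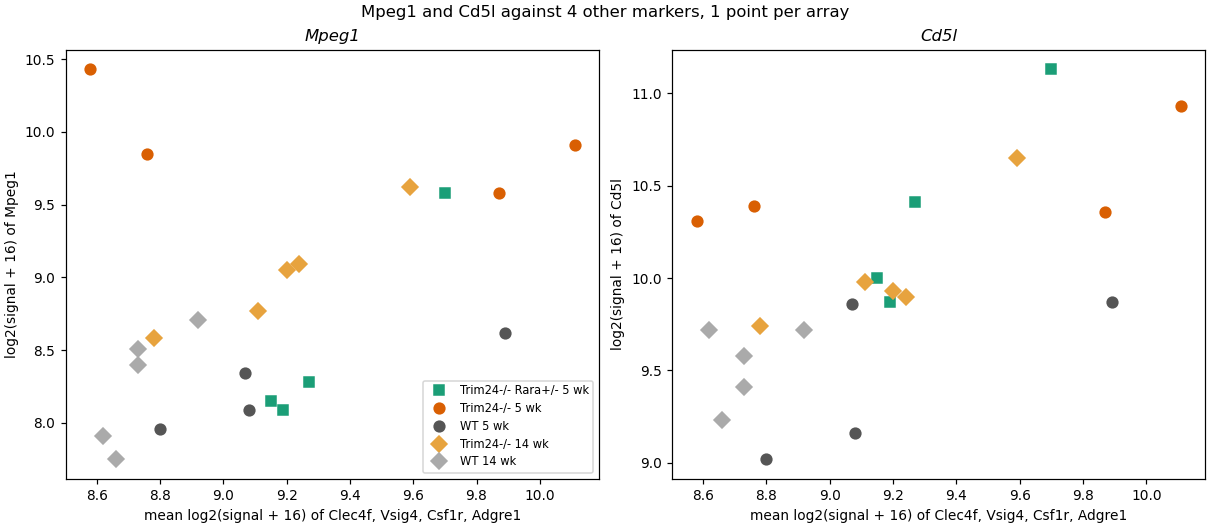
Level of Mpeg1 (left) and Cd5l (right), as log2(signal + 16), against the mean log2 level of Clec4f, Vsig4, Csf1r and Adgre1 on the same array, with 1 point per array. At 5 weeks the 4 Trim24-/- points for Mpeg1 stay between log2 levels of about 9.6 and 10.4 while the mean of the 4 markers runs from 8.58 to 10.11, and 3 of the 4 Trim24-/- Rara+/- points lie among the WT points.

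Lyz2 encodes lysozyme M of myeloid cells. Lyz2 read 753, 808.8, 556.8 and 569.7 in Trim24-/- Rara+/- livers, 347.9, 531.3, 341.2 and 741.7 in Trim24-/- livers and 490.5, 362.5, 256.7 and 879.3 in WT livers at 5 weeks. The groups overlapped, with log2 changes against WT of 0.55 ± 0.33 in Trim24-/- Rara+/- and 0.05 ± 0.33 in Trim24-/- livers. Lyz2 is uncertain as a single-gene reading because Lyz1 is a near-identical copy: 2 of 3 Lyz1 probe sets gave 0.52 ± 0.30 and 0.77 ± 0.44 in Trim24-/- Rara+/- against WT livers, close to Lyz2, while the other Lyz1 set averaged 7.317 in Trim24-/- Rara+/- and 1.321 in WT livers, below the pseudocount.

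At 14 weeks all 10 markers had higher means in Trim24-/- than in WT livers, and none passed the test. The median log2 change was 0.43 over the markers and 0.00 over all genes, of which 50.3% had positive estimates. An unadjusted p under 0.05 was found for 7 of 10 markers, all higher, compared with 4.66% of all genes. That count was 3 with all 22 arrays in the fit and 5 without liver_613WT or liver_395M, and 0.242% of all genes were called. The markers share the same 10 arrays, so their estimates are not independent of each other.

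Vsig4 had the smallest p at this age. Vsig4 read 491.7, 449.5, 581.1, 412.3 and 728.9 in Trim24-/- animals liver_648M, liver_466M, liver_463M, liver_411M and liver_395M, and 338.5, 329.1, 367.8, 332.5 and 315.9 in WT animals liver_616WT, liver_611WT, liver_613WT, liver_464WT and liver_393WT. The groups did not overlap, and the log2 change was 0.61 ± 0.15 (adjusted p = 0.17, limma). Cd5l also did not overlap, at 993.5, 956.9, 936.5, 837.3 and 1588 in Trim24-/- and 825.8, 826.9, 751.7, 582.7 and 664.7 in WT livers, with a log2 change of 0.51 ± 0.17 (adjusted p = 0.401, limma). Of all genes, 1.78% did not overlap in either direction.

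Mpeg1 and Marco gave the largest estimates at 14 weeks, with overlap. Mpeg1 read 421.3, 514.9, 529.3, 366 and 770.1 in Trim24-/- and 402.7, 223.8, 349.7, 199.5 and 321.2 in WT livers, a log2 change of 0.77 ± 0.22 (adjusted p = 0.313, limma). Marco read 66.22, 64.18, 62.72, 46.47 and 155.2 in Trim24-/- and 62.27, 39.33, 37.12, 18.05 and 20.21 in WT livers, a log2 change of 0.86 ± 0.28 (adjusted p = 0.38, limma). In each gene the lowest Trim24-/- array, animal liver_411M, lay below the highest WT array, animal liver_616WT.

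The other 6 markers gave log2 changes from 0.15 ± 0.17 for Timd4 to 0.44 ± 0.16 for Clec4f at 14 weeks. Clec4f read 575.1 to 1053 in Trim24-/- livers with a median of 834.6 and 494.9 to 711.7 in WT livers with a median of 610.8. Csf1r read 895.1 to 1386 in Trim24-/- and 704.4 to 1083 in WT livers, and its 3 probe sets gave similar changes of 0.41, 0.36 and 0.31. Adgre1, Lyz2 and Cd68 gave 0.35 ± 0.17, 0.34 ± 0.15 and 0.19 ± 0.13, and the groups overlapped in each.

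Trim24-/- animal liver_395M read highest of the 10 arrays at 14 weeks for every marker. Without it the estimates stayed positive, from 0.01 for Timd4 to 0.62 for Mpeg1 and Marco, with 0.49 for Vsig4 and 0.35 for Cd5l. The estimates of Adgre1 and Timd4 moved by over 1.5 times, to 0.23 and 0.01. The mean log2 level of Clec4f, Vsig4, Csf1r and Adgre1 was 9.19 ± 0.29 in Trim24-/- and 8.73 ± 0.11 in WT livers at this age (SD, n = 5 each), and relative to it Mpeg1 differed by 0.31 and Cd5l by 0.05, with overlapping groups.

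The effect of genotype on Mpeg1 differed between 14 and 5 weeks by -0.93 ± 0.39 on the log2 scale, which did not pass the test of the interaction (adjusted p = 0.769, unadjusted p = 0.0272, limma). No other marker had an unadjusted p under 0.05, compared with 6.39% of all genes, and the estimates ran from -0.51 for Cd5l to 0.51 for Vsig4. Of all genes 0.0330% were called. Age and sex-linked signal cannot be told apart on these arrays, so the difference cannot be assigned to age alone.

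In WT livers, 3 of the 10 markers were called lower at 14 than at 5 weeks, where 28.3% of all genes were called, 8.63% lower and 19.7% higher. Age and sex-linked signal cannot be told apart on these arrays, so these differences cannot be assigned to age alone. The median of all genes itself shifted by 0.13, so changes are also given relative to it. Csf1r averaged 836.3 ± 151 at 14 weeks and 1443 ± 328 at 5 weeks (SD, n = 5 and 4), a log2 change of -0.77 ± 0.22 or -0.90 relative to the median (adjusted p = 0.0126, limma). Vsig4 averaged 336.8 at 14 weeks and 700.9 at 5 weeks, a log2 change of -0.93 ± 0.32 or -1.06 relative to the median (adjusted p = 0.0334, limma). Marco averaged 35.39 at 14 weeks and 75.71 at 5 weeks, a log2 change of -0.83 ± 0.30 or -0.96 relative to the median (adjusted p = 0.0395, limma). The arrays of the 2 ages did not overlap for Csf1r and Vsig4, against 19.1% of all genes in either direction.

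The 2 dimmer Csf1r probe sets gave -0.32 and -0.25 and the second Marco set -0.31, none past the test. Csf1r lost its call without WT animal 90WT (-0.62, adjusted p = 0.0554, limma). Vsig4 lost it without any of WT animals 2WT, 90WT, liver_611WT, liver_464WT and liver_393WT, the largest shift being -0.64 without 90WT (adjusted p = 0.146, limma). Marco lost it without any of WT animals 2WT, 44WT, 45WT, liver_613WT, liver_464WT and liver_393WT, the largest shift being -0.63 without 45WT (adjusted p = 0.141, limma). After quantile normalisation Marco kept its call (-1.07, adjusted p = 0.0193), and Vsig4 and Csf1r were at -0.85 and -0.63 (adjusted p = 0.0655 and 0.0603, limma). Mpeg1 and Cd5l gave 0.01 and 0.05 as deposited and -0.24 and -0.19 with each array centred on its median, so no direction is given for them. Scaling also moved the split of calls over all genes: 69.5% of them were higher at 14 weeks as deposited, 26.5% after centring and 50.1% after quantile normalisation.

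Other genes of Kupffer cells and macrophages were not called by genotype. In that list of 30, of which 29 were measured, all 29 missed the test in each of the 4 genotype comparisons. Its median log2 change was 0.33 in Trim24-/- livers at 5 weeks with 24 positive estimates, 0.13 in Trim24-/- Rara+/- against WT livers with 24 positive, -0.21 in Trim24-/- Rara+/- against Trim24-/- livers with 8 positive, and 0.35 in Trim24-/- livers at 14 weeks with 27 positive. The smallest p-values were those of Aif1, an actin-binding protein of macrophages, and Fcgr1, the high-affinity IgG receptor. Aif1 read 129 ± 68.3 in Trim24-/- and 51.35 ± 20.9 in WT livers at 5 weeks (SD, n = 4 each; log2 change 1.05 ± 0.29, adjusted p = 0.156, limma). Fcgr1 read 83.53 ± 29.1 in Trim24-/- and 43.36 ± 9.57 in WT livers (log2 change 0.72 ± 0.21, adjusted p = 0.183, limma). Both also had the smallest p between Trim24-/- Rara+/- and Trim24-/- livers, at -0.89 ± 0.29 for Aif1 and -0.61 ± 0.21 for Fcgr1 (adjusted p = 0.227 and 0.254, limma). Between Trim24-/- and WT livers at 5 weeks, 6 of the 29 genes had an unadjusted p under 0.05 (limma) on the higher side (6.11% of all genes). On the lower side 1 had it, against 860 of all 18194 genes. Between Trim24-/- Rara+/- and Trim24-/- livers 7 had it in either direction (11.5% of all genes). Between Trim24-/- Rara+/- and WT livers 0 had it. Cd163 was lower in Trim24-/- livers at 5 weeks, at 112.9 against 183.3 in WT livers (log2 change -0.74, not called). At 14 weeks Cd163 averaged 146.7 in Trim24-/- and 106.6 in WT livers. It had the smallest p of the list in the interaction, at 1.18 ± 0.44 (adjusted p = 0.656, limma).

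At 14 weeks the smallest p-values of that list were those of Fcna, a ficolin of the complement system, and C1qc, a chain of complement C1q. Fcna read 672.8 ± 37.5 in Trim24-/- and 504.4 ± 47.4 in WT livers (SD, n = 5 each; log2 change 0.41 ± 0.10, adjusted p = 0.186, limma), and C1qc gave 0.54 ± 0.17. An unadjusted p under 0.05 was found for 11 of the 29 genes, all higher in Trim24-/- livers, where 4.66% of all genes were. These genes share the same arrays, so their estimates are not independent of each other. The mean log2 level of the list was 8.12 in Trim24-/- animal liver_395M, 7.41 to 7.61 in the other Trim24-/- animals and 7.23 to 7.48 in WT animals. In WT livers, 4 of the 29 were called lower at 14 weeks, where 8.63% of all genes were: Hpgd at -0.97, Slc40a1 at -0.85, Cybb at -0.93 and Msr1 at -0.57 on the log2 scale. The median of all genes, at 0.13, is not subtracted from these values, and age cannot be told apart from sex-linked signal in them.

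In a list of genes of recruited monocytes and lipid-associated macrophages, 12 of 17 were measured. By genotype Ccl2 alone was called, in Trim24-/- against WT livers at 5 weeks, where 0.599% of all genes were called in either direction. There 11 of the 12 estimates were positive (47.9% of all genes). On the higher side 6 had an unadjusted p under 0.05 (limma), compared with 6.11% of all genes. Groups did not overlap for 3 (5.52% of all genes in either direction). Ccl2, the chemokine that draws monocytes into tissue, read 22.38 ± 12.1 in Trim24-/- and 3.418 ± 3.27 in WT livers at 5 weeks (SD, n = 4 each), the WT level being below the pseudocount (log2 change 0.95 ± 0.18, adjusted p = 0.0393, limma). In Trim24-/- Rara+/- livers Ccl2 read 2.3 ± 1.71, a log2 change of -1.03 ± 0.18 against Trim24-/- (adjusted p = 0.0553, limma). Plac8 gave -0.87 ± 0.19 in the same comparison and 0.81 ± 0.18 in Trim24-/- against WT livers at 14 weeks (adjusted p = 0.0876 and 0.133, limma). In Trim24-/- against WT livers at 5 weeks Plac8 gave 0.88 and was not called. At 14 weeks Ccl2 averaged 8.613 in Trim24-/- and 13.22 in WT livers, both below the pseudocount. Median log2 changes of the list were 0.41 in Trim24-/- livers at 5 weeks, -0.01 in Trim24-/- Rara+/- livers against WT, -0.33 between the mutant groups and 0.10 at 14 weeks.

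Signals that act on macrophages, and the genes of their activation, held no call by genotype. Of 16 genes of the CSF1 receptor axis and related growth factors, Tgfbr2, a receptor of TGF-beta, had the smallest p in Trim24-/- livers at 5 weeks at 0.55 ± 0.17 (adjusted p = 0.204, limma), and Csf2rb at 14 weeks at 0.75 ± 0.19 (adjusted p = 0.227, limma). Of 16 activation genes, Tlr2 gave 0.65 ± 0.18 and Cd86 gave 0.51 ± 0.15 in Trim24-/- livers at 5 weeks (adjusted p = 0.168 and 0.178, limma). The median log2 changes of both lists lay between -0.09 and 0.17 in the 4 genotype comparisons.

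Interferon-stimulated genes were called in the comparison that called Mpeg1. Of 34 measured, 19 were called higher in Trim24-/- livers at 5 weeks, 0 were called in Trim24-/- Rara+/- livers against WT, 8 were called lower in Trim24-/- Rara+/- against Trim24-/- livers, and 1, Usp18, was called higher in Trim24-/- livers at 14 weeks. Their median log2 changes were 1.45, 0.07, -1.49 and 0.44. In these comparisons, in the same order, 0.599%, 0.0550%, 0.143% and 0.242% of all genes were called in either direction. The interferon list was chosen with earlier results of these data known. The smallest adjusted p-values in Trim24-/- livers at 5 weeks were those of the guanylate-binding protein gene Gbp6, the immunoproteasome subunit gene Psmb9, Ifi27l2a and the antiviral Oas1a, at 2.31, 1.39, 1.69 and 2.07 on the log2 scale. Between Trim24-/- Rara+/- and Trim24-/- livers Gbp6, Ifi27l2a and Oas1a were at -2.11, -1.46 and -1.76, and all 3 were called lower. Their mean log2 level was 9.22, 8.04, 8.65 and 8.01 in Trim24-/- animals 1KO, 6KO, 8KO and 37KO, 7.48 in Trim24-/- Rara+/- animal 73R, 6.85 to 6.94 in the other 3 Trim24-/- Rara+/- animals, and 6.82 to 7.22 in WT animals at 5 weeks. Trim24-/- animal 1KO was highest for both Mpeg1 and this list, whereas animal 37KO ranked 2 for Mpeg1 and was lowest of the Trim24-/- group for the list. Animal 73R was highest of the Trim24-/- Rara+/- group for both, but also for every other marker except Lyz2. It read close to animal 6KO for Mpeg1 (748.3 and 748.8), at list levels of 7.48 and 8.04. Which cells carried the Mpeg1 signal, and the part of interferon signalling in it, was not tested.

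The genes whose levels were most like those of Mpeg1 over the 22 arrays, after the mean of each age was subtracted, were Shisa5, Mndal, Cotl1, Trim30a and Gbp6, with Pearson correlations of 0.91 to 0.93 among 8324 genes compared. Of these, Shisa5, Cotl1, Trim30a and Gbp6 were called higher in Trim24-/- livers at 5 weeks. For Clec4f they were C1qb, Tyrobp, C1qc, C1qa and Alox5ap at 0.90 to 0.92, none of them called. For Lyz2 they were Lyz1 at 0.98, then Clec4n, Sema6d, Cd74 and Chka at 0.80 to 0.84. The arrays hold groups of genotypes, so these values describe a shared pattern over groups and animals and carry no p.

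Marker lists of other cell types held no call in the 4 genotype comparisons: neutrophils (8 genes), dendritic cells (8), B cells (7), T and NK cells (10), sinusoidal endothelium (12), stellate cells (11), cholangiocytes (6), erythroid cells (6) and hepatocytes (8). Their median log2 changes in Trim24-/- livers at 5 weeks lay between -0.13 and 0.30. The same medians for 14-week animals ran from -0.16 (hepatocytes) to 0.22 (stellate cells). Hepatocyte genes had 0 of 8 positive estimates in Trim24-/- against WT livers at each age. Of 12 sinusoidal endothelium genes, 2 were positive there at 5 weeks, 9 at 14 weeks. In Trim24-/- Rara+/- against Trim24-/- livers all 12 were positive, with a median of 0.28. At 5 weeks the neutrophil, dendritic cell and erythroid lists had 6 of 8, 7 of 8 and 2 of 6 positive in Trim24-/- against WT. Of the arrays at 5 weeks, Trim24-/- animal 37KO had the highest summed signal for the B cell, T and NK cell, dendritic cell, cholangiocyte and stellate cell lists. Trim24-/- animal 6KO had it for the neutrophil list. The summed B cell signal was 115 to 163.8 in Trim24-/- Rara+/-, 174.1 to 272.3 in Trim24-/- and 64.39 to 164.3 in WT livers at 5 weeks, with 6 of 7 genes positive in Trim24-/- against WT livers. The summed T and NK cell signal was 41.05 to 131.6 in Trim24-/- Rara+/-, 103.1 to 226.1 in Trim24-/- and 72.61 to 96.61 in WT livers, with 9 of 10 genes positive. Of the B cell genes Ighm gave 1.62 ± 0.42 (adjusted p = 0.142, limma) and the mean of Cd79a was at most 10.72 in the groups at 5 weeks, below the pseudocount. Cholangiocyte markers summed to 60.87 to 117.5 in Trim24-/- Rara+/-, 89.8 to 150.7 in Trim24-/- and 70.97 to 99.2 in WT livers, with 5 of 6 genes positive in Trim24-/- against WT. Stellate cell markers summed to 5918 to 6351, 4908 to 8779 and 4966 to 5988 in the same 3 groups, with 8 of 11 genes positive in Trim24-/- against WT. The 8779 was that of animal 37KO, while animals 1KO, 6KO and 8KO summed to 4908, 6250 and 5313. Col1a1, a collagen chain, read 30.87 to 219.7 in Trim24-/- and 18.35 to 33.61 in WT livers, a log2 change of 1.05 ± 0.36 (adjusted p = 0.287, limma). The part of any of these cells in the Mpeg1 value was not tested.

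**Figure D4:**
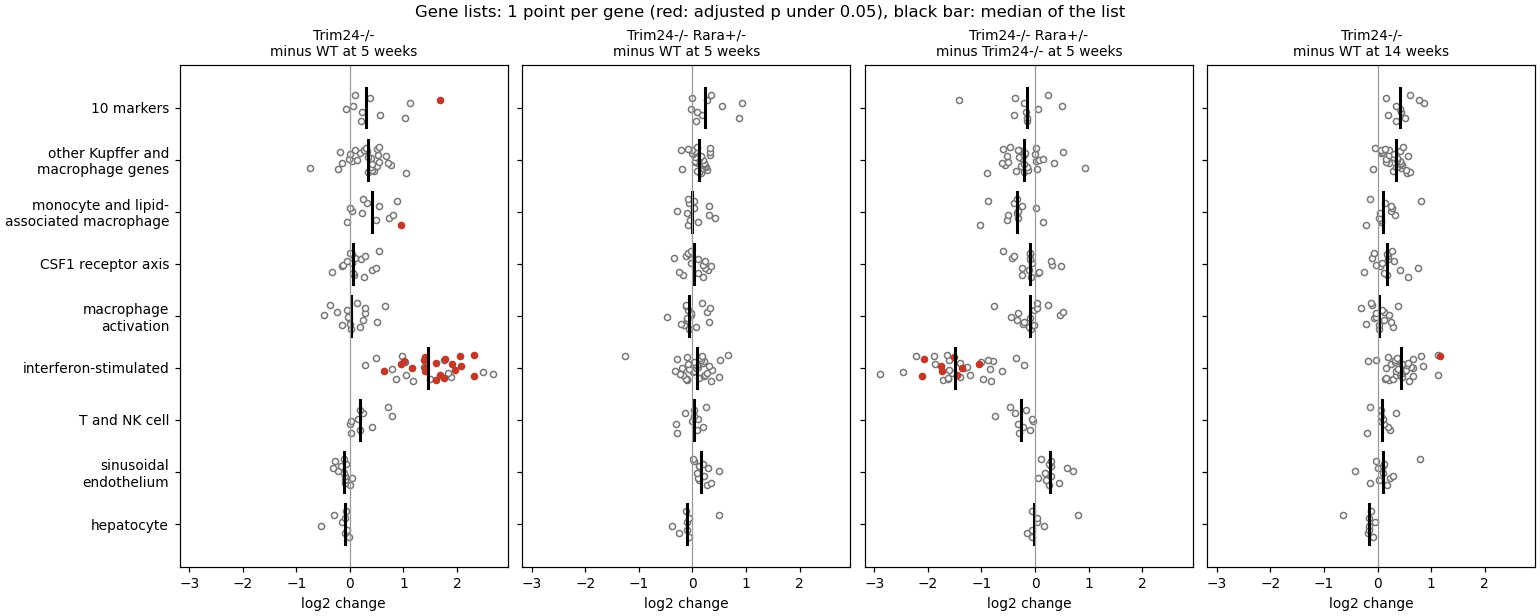
Log2 change of every measured gene in 9 lists for 4 comparisons, with red points called at an adjusted p under 0.05 and a black bar at the list's median. Interferon-stimulated genes shift by a median of 1.45 in Trim24-/- against WT livers at 5 weeks and by -1.49 in Trim24-/- Rara+/- against Trim24-/- livers, while the 10 markers and the other macrophage genes have medians between -0.21 and 0.43.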

How the data were processed

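Liver RNA of 22 mice was measured on Affymetrix arrays. The authors deposited a linear intensity for each of 45101 probe sets, scaled so that every array has a mean of 100 after trimming 2% at each end, by software not given in the sources used here. Array medians were 12.6 to 16.1 at 5 weeks and 19.7 to 25.9 at 14 weeks, and no 2 arrays were identical. A platform annotation names 1 gene for 34958 probe sets and several for 932, and does not list 9211.

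Here the deposited values were taken as log2(signal + 16) and each of 18194 genes by its brightest probe set. Groups, from the sample titles, were compared with limma 3.58.1 (lmFit, eBayes) under R 4.3.3, in fits of 12 arrays at 5 weeks, 10 at 14 weeks, and 22 for age and the interaction, after tests on simulated data. All markers are named. The rule for each list named up to 4 called genes with the smallest adjusted p or else the 2 genes with the smallest p, and not all of these are printed. Markers and lists were chosen with earlier results of these data known. Promoter windows came from RefSeq (GRCm38.p6). Alternatives covered the pseudocount, scaling, brightness, probe sets, variance model, the samples fitted, and single arrays left out.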

Additional observations from a re-analysis of the deposited data

Results flagged for a closer look

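Of 50 sets of values, 10 markers in 5 groups, 5 held an animal far from the others of its group by Dixon's test. Chance alone gives about 1 in 20 for independent sets. These sets are not independent, since the markers share arrays, and animals 73R and liver_395M were each flagged for more than 1 marker. Trim24-/- Rara+/- animal 73R read 748.3 for Mpeg1, where the other 3 animals read 257.2 to 294.5, and 1098 for Vsig4, where they read 747.7 to 773.5. Trim24-/- animal 37KO at 5 weeks read 1941 for Cd5l, where the others read 1254 to 1325. Trim24-/- animal liver_395M at 14 weeks read 1588 for Cd5l and 155.2 for Marco, where the others read 837.3 to 993.5 and 46.47 to 66.22.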

How the results depend on the processing

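Over 60 estimates (10 markers in 6 comparisons) and 1590 alternatives, the direction turned 62 times, in 23 estimates, never for a called value; 26 values lost a call and 8 gained one; the cause was not tested. For Trim24-/- against WT at 5 weeks, 1 marker was called; 0 were with a pseudocount of 1 (Mpeg1 adjusted p = 0.0839) and 0 with Trim24-/- Rara+/- animals 54R, 66R and 82R averaged (0.0569), 2 without WT 90WT and Trim24-/- 6KO together, and 0 to 2 on leaving out single arrays; Mpeg1 ranged from 1.53 to 1.94. For Trim24-/- Rara+/- against Trim24-/-, the count of 0 became 1 (Mpeg1) with brighter genes, array weights or all 22 arrays, and 0 to 1 without single arrays. For WT age, the count of 3 became 1 after quantile normalisation, 1 with the mean of all probe sets, 4 with centring, and 1 to 3 without single arrays. No marker was called at 14 weeks, in the interaction or in Trim24-/- Rara+/- against WT under any alternative. Averaging and the joint omission were chosen after seeing the data. Over all genes, calls were 109 for Trim24-/- at 5 weeks (34 with a pseudocount of 1, 19 with the 2 groups alone, 28 with averaging, 12 without 45WT, 14 without 8KO, 29 without 1KO and 39 without 44WT), 26 for Trim24-/- Rara+/- against Trim24-/- (0 with a pseudocount of 1, with averaging, or without 8KO, 54R, 66R or 82R, and 325 with array weights), 10 for Trim24-/- Rara+/- against WT (5 with averaging, 31 with all arrays) and 44 at 14 weeks (28 with a pseudocount of 1, 94 with all arrays). No paired analysis was made, because each animal belongs to 1 group and the sample titles link no animals across groups.

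Other values whose direction turned were all uncalled. For Trim24-/- against WT at 5 weeks these were Csf1r at 0.03 with the mean of probe sets, and Vsig4 at -0.13 and Lyz2 at -0.06 with array weights; without single arrays Lyz2 ran from -0.21 to 0.37, Vsig4 from -0.21 to 0.43, Csf1r from -0.31 to 0.12 and Adgre1 from -0.05 to 0.43. For Trim24-/- Rara+/- against WT these were Csf1r at 0.01 centred, 0.10 with the mean of probe sets, 0.12 with the joint omission and 0.04 averaged, and Timd4 at -0.04 with array weights; without single arrays Clec4f ran from -0.09 to 0.37, Timd4 from -0.24 to 0.24, Adgre1 from -0.09 to 0.24, Csf1r from -0.11 to 0.12 and Mpeg1 from -0.08 to 0.42. For Trim24-/- Rara+/- against Trim24-/- these were Clec4f at 0.03 with the joint omission and 0.01 averaged, and Cd5l at 0.11 averaged; without single arrays Vsig4 ran from -0.08 to 0.56, Csf1r from -0.15 to 0.28, Clec4f from -0.41 to 0.06, Adgre1 from -0.37 to 0.12 and Cd5l from -0.41 to 0.02. In the interaction, without single arrays, Clec4f ran from -0.08 to 0.43, Adgre1 from -0.09 to 0.40 and Lyz2 from -0.02 to 0.55. For WT age, centred values were -0.24 for Mpeg1 and -0.19 for Cd5l; without single arrays Mpeg1 ran from -0.11 to 0.13, Cd5l from -0.10 to 0.18, Clec4f from -0.25 to 0.18, Adgre1 from -0.25 to 0.08, Cd68 from -0.16 to 0.03 and Timd4 from -0.38 to 0.01.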
